A study of Mus musculus with 9 samples.

Results

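The comparison described here set the aortas of mice given β-aminopropionitrile (BAPN) together with T-5224 (2 libraries, called the T-5224 libraries below) against the aortas of normal mice (2 libraries). These 4 of the 9 libraries in the series were chosen by the treatment in their labels. All animals were C57BL/6J mice killed on day 28. Normal mice drank distilled water and received neither agent. BAPN was drunk as a solution at 1 g/kg/day, and T-5224 was given daily by gavage at 5 mg/kg/day, starting on day 7 or on day 14. The library titles name 2 weeks for T-5224 replicate 1 and 3 weeks for T-5224 replicate 2. The sources used here do not say how these titles map to the start of gavage or which of the 12 mice of a group gave a library, and they give neither age nor sex, so the time under T-5224 and the replicate cannot be told apart. The T-5224 group differed from normal by BAPN and by T-5224, and the parts of the 2 agents cannot be told apart within this comparison. The values of 2 libraries from mice given BAPN alone are therefore printed beside those of the genes described.

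BAPN blocks the lysyl oxidases, the enzymes that cross-link elastin and collagen, and mice given it develop aortic dissection. AP-1 is a dimeric transcription factor of the Fos, Jun and ATF families. Several of its subunits are immediate early genes, switched on within minutes by injury or cytokines. Its dimers bind the 7-base motif TGANTCA in front of chemokine, interleukin and protease genes. T-5224 is a small molecule made to block the binding of AP-1 dimers that hold c-Fos to DNA. Its direct target is thus the protein, and whether it alters the transcripts of the subunits was not tested. The healthy aortic wall is mostly contractile smooth muscle in elastic layers, lined by endothelium and wrapped in an outer coat of fibroblasts, nerves and fat.

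Values are FPKM, fragments scaled to transcript length and to the mapped total of a library, so levels can be compared between genes. No counts were used here, the depth per library is unknown, and no counting interval can be given. The 4 libraries listed between 13982 and 16085 genes, with FPKM sums of 578614 and 502238 for normal and of 923251 and 1095891 for T-5224. The labelled tissue was present in all 4, with Acta2, the actin of smooth muscle, between 1306 and 9310 FPKM and Pecam1, an endothelial junction protein, between 113 and 375 FPKM. The libraries of 1 group were not alike. Of 12997 tested genes, 22.9% differed by more than 1 log2 between the normal libraries and 36.9% between the T-5224 libraries, against 9.53% between the BAPN libraries. T-5224 replicate 1 correlated more closely with normal replicate 2 (Pearson r = 0.917 across genes, which are not independent) than with T-5224 replicate 2 (0.794). Of that sum, haemoglobin genes took 1.25% and 1.03% in normal, 40.8% and 11.2% in T-5224, and 68.9% and 74.1% in BAPN. The normal and T-5224 shares did not overlap (exact permutation p = 0.333, two-sided, the smallest that 2 against 2 libraries can give). The Y-linked genes measured had a summed level of 0 FPKM in normal replicate 1 and of 42.4 to 76.7 FPKM in the other 3 libraries.

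Most of the transcriptome could not be called different from normal under T-5224. Of the 12997 genes tested by limma on log2(FPKM + 1), none rose (0%) and 1 fell (0.00769%) at an adjusted p under 0.05, with Benjamini-Hochberg adjustment over all tested genes, while 1809 genes (13.9%) had an unadjusted p under 0.05. The T-5224 libraries weighed heavily in these counts: without T-5224 replicate 1, 669 genes rose and 1567 fell, and without T-5224 replicate 2, 16 rose and 15 fell, with the lone sample assumed to vary like the other groups. Without either normal, BAPN or TPA library, none rose or fell. With 2 libraries a group these p-values measure only the spread between these samples, which may be technical. In T-5224 that spread cannot be told apart from the time under the agent, as the titles name 2 and 3 weeks. The 95% interval of a gene's difference reached on average, by the median, 1.03 log2 to either side. A gene that missed the threshold is therefore not shown to be at its normal level, and 2 further descriptions were used. In the first, 1659 genes (12.8%) had a 95% interval lying wholly within 1 log2 of normal. In the second, the order of the 4 libraries, both T-5224 values lay above both normal values in 1654 genes (12.7%), below both in 3381 (26%), and within the range of the normal libraries in 1453 (11.2%). The remaining 6509 genes (50.1%) had another order. Among genes with no overlap, 684 were higher and 1527 lower by at least 2-fold in the means.

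The split between higher and lower genes depended on the scale. Of the genes without overlap, 32.8% were higher in T-5224 as deposited, against 52.2% after median-of-ratios scaling, 57.2% after quantile normalization, 60.0% after a transcript length trend was removed, 14.1% after rescaling to TPM without haemoglobin and 2.79% after rescaling to TPM. Rescaling to TPM, in which the haemoglobin transcripts take their share of a fixed sum, moved the median difference of all genes from -0.23 to -1.01 log2. With haemoglobin left out of that sum the median was -0.63 log2, so haemoglobin was not all of the shift. The FPKM sum without haemoglobin was 571394 and 497051 in normal, 546402 in T-5224 replicate 1 and 973532 in replicate 2. For this reason gene groups are given below relative to the median of all tested genes, with the range over these scalings. Counts of list members after a rescaling belong beside those of all genes under it. After median-of-ratios scaling 2421 genes lay above both and 2216 below both. After quantile normalization these were 2621 and 1958, and after length correction 2191 and 1460, of 12649 genes. Among the 266 genes taken by the naming rule, 57 had a difference from normal that changed sign across the scalings. Of the 78 that lay above both normal libraries as deposited, 64 did so after length correction and 34 after TPM, and of the 74 below both, 60 did so after median-of-ratios scaling and 50 after length correction. Of the genes described below as above both normal libraries, Selp and Ier5 lay below both after TPM. Others overlapped with normal after TPM. They were Fosb, Jun, Jund, Batf3, Ier2, Socs3, Cxcl1, Plaur, Fech, Blvrb, Nqo1, S100a4, Lgals3, Mfap2, Isg15, Rps19, Rps16, Psmb3 and Atp5e. Of those described as below both, Fosl2, Atf2, Tgfb3, Tef, Klf9, Pdk4 and Pfkp were no longer so after median-of-ratios scaling and after length correction, and Il6st, Stat3, Col14a1 and Pfkfb3 after length correction.

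Position against normal went with transcript length. The longest transcript had a median of 1979 bases in genes above both normal libraries, 2791 bases in genes within the normal range and 4723 bases in genes below both. With genes put into 10 equal bins of length, the shortest had a median difference of 0.54 log2 and the longest of -0.76 log2. Set against the mean of the normal libraries, both T-5224 libraries showed the slope. It was steeper in replicate 2, from 0.95 to -0.99 log2, than in replicate 1, from 0.25 to -0.49 log2. In each library length was also correlated with a gene's deviation from its mean over the 9 libraries. Spearman's coefficient was 0.275 and 0.401 in normal, 0.006 in T-5224 replicate 1 and -0.373 in replicate 2. Replicate 1 thus had almost no trend of its own on that scale, and both normal libraries had a positive one. Whether RNA quality, library preparation or the tissue set this slope was not tested, and the values after its removal are given where they matter.

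**Figure D1:**
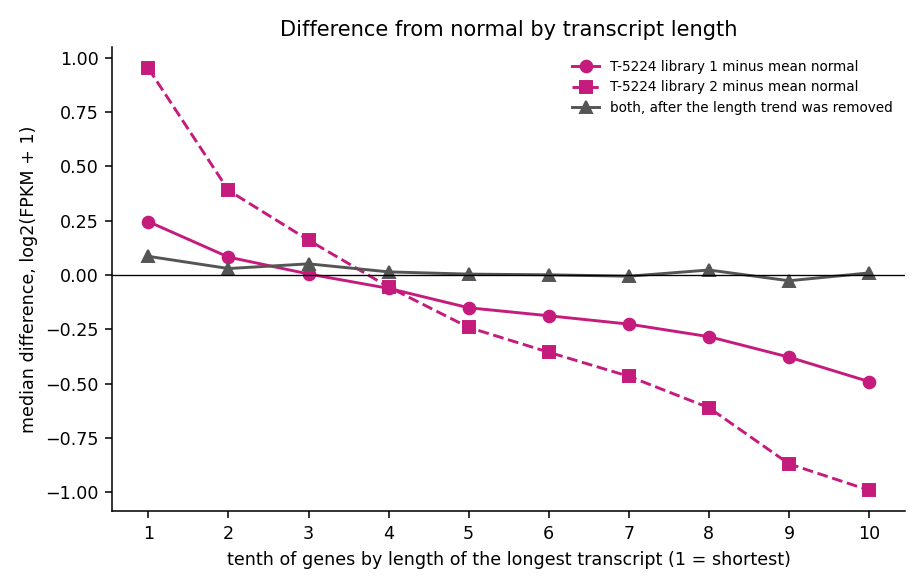
Median difference from the mean of the normal libraries in log2(FPKM + 1) (y axis) for tested genes in 10 bins of transcript length (x axis, 1 = shortest), drawn for T-5224 replicate 1 (circles), replicate 2 (squares) and the fit after the length trend was removed (triangles). Both T-5224 lines slope downwards, replicate 2 from 0.95 to -0.99, and the corrected line lies near 0.

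The 1 gene that fell was Tmem254c, which encodes a small membrane protein and lies on chromosome 14 (14:26063751-26067425, GRCm38.p6). It stood at 42.8 and 45.3 FPKM in normal and was listed at 0 in both T-5224 libraries and in both BAPN libraries (log2 change -5.49, SE 0.371, limma adjusted p = 0.0264 with Benjamini-Hochberg adjustment). Its neighbouring copy Tmem254b (14:26203366-26207025) went the other way, from 0 and 0.95 FPKM in normal to 26.5 and 10.1 in T-5224 (adjusted p = 0.278). The copies are nearly identical, and the sources used here do not say how reads were shared among them, so both values are uncertain. Summed over the 3 copies, the level was 45.2 and 47.5 FPKM in normal, 27.8 and 10.1 in T-5224 and 20.3 and 7.28 in BAPN. The sum was thus lower in both T-5224 libraries, though by far less than Tmem254c alone. Tmem254c did not pass without either normal, BAPN or TPA library.

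The promoter windows in RefSeq, 250 bases before to 50 after the start, show how alike the copies are. Those of Tmem254a and Tmem254c are identical over all 300 bases, and that of Tmem254b shares an unbroken run of 284 bases with each. The first 60 bases before the start are printed once because they are the same in all 3 copies on the minus strand (chr14:25927673-25927732 for Tmem254a, chr14:26207042-26207101 for Tmem254b and chr14:26067426-26067485 for Tmem254c, GRCm38.p6).
Tmem254a, Tmem254b and Tmem254c: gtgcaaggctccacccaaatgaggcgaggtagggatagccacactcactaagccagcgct

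Among the 100 genes of smallest p that missed the threshold, the 10 highest above normal included genes of blood, haem handling and leukocytes. None of them passed (limma adjusted p = 0.278 for each). Alas2, the red cell enzyme that starts haem synthesis, was at 17.3 and 12.5 FPKM in normal and at 1056 and 125 in T-5224 (log2 difference 4.54, SE 0.91). Hmox1, haem oxygenase, which breaks haem down, was at 28.5 and 14.6 FPKM against 188 and 536 (3.89, SE 0.83). In both genes each T-5224 library lay above each normal library. Clec1b, a receptor of platelets, was at 2.12 and 5.33 FPKM in normal and at 47.9 and 44.0 in T-5224. Lst1, a transcript of myeloid cells, was at 4.83 and 1.26 FPKM in normal and at 31.2 and 32.9 in T-5224. The T-5224 values of these 2 genes lay close together, and those of Clec1b near the BAPN values of 45.6 and 49.7 FPKM. Ctla2a, an inhibitor of cathepsin-like proteases, was at 47.2 and 47.8 FPKM in normal, 330 and 285 in T-5224 and 552 and 563 in BAPN. Hist2h3b, Dynlt1b and Hbq1a, which have near-identical copies in the genome, also stood among the 10 highest, with differences of 3.46, 3.25 and 3.07 log2. All of these kept both T-5224 libraries above both normal libraries after median-of-ratios scaling, TPM and length correction.

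The 10 furthest below normal among the same 100 genes had an adjusted p of 0.225 or 0.278 and did not pass either. Zbtb16, a zinc finger factor induced by glucocorticoids, was at 39.0 and 70.0 FPKM in normal, 1.97 and 6.42 in T-5224 and 2.28 and 1.72 in BAPN (log2 difference -3.51, SE 0.50). Heg1, an endothelial membrane protein needed for vessel integrity in mouse and zebrafish, was at 47.9 and 27.8 FPKM in normal and at 4.03 and 1.55 in T-5224 (-3.39, SE 0.42). Itpkb, an inositol trisphosphate kinase, was at 38.0 and 36.9 FPKM in normal and at 6.61 and 4.89 in T-5224 (-2.52, SE 0.26). Each of these had T-5224 values far below both normal values. The BAPN values were 6.16 and 5.30 FPKM for Heg1 and 11.0 and 10.9 FPKM for Itpkb, above both T-5224 values and below both normal values. Rasl10b, a small GTPase, was at 10.4 and 35.0 FPKM in normal and at 1.06 and 1.61 in T-5224. Hsph1, a heat shock protein, was at 62.9 and 122 FPKM in normal and at 23.7 and 7.35 in T-5224. Abhd2, Zfp366, Parm1, Glg1 and Olfml2a completed the 10, with differences between -3.20 and -2.57 log2. All 10 stayed below both normal libraries after median-of-ratios scaling, TPM and length correction.

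**Figure D2:**
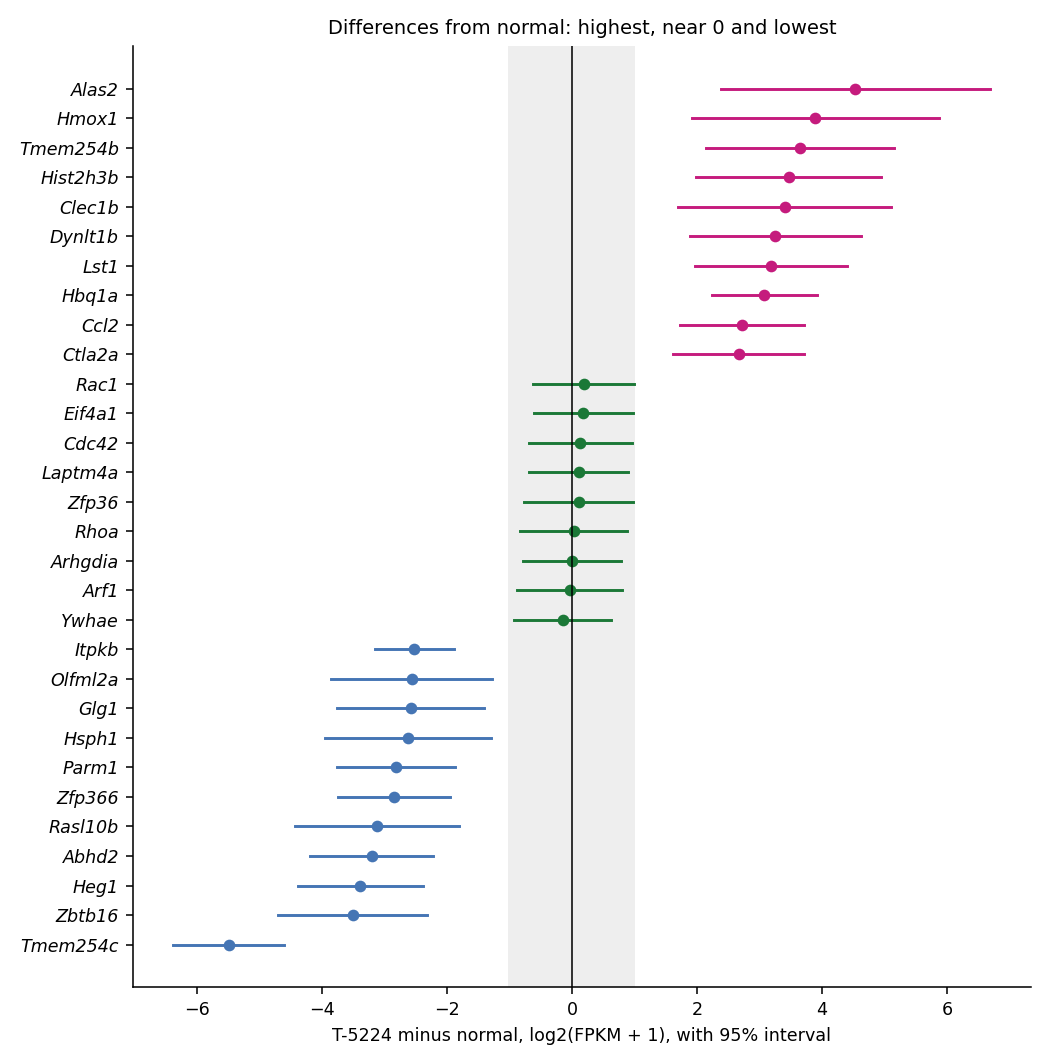
Difference of the T-5224 from the normal libraries in log2(FPKM + 1) (x axis) with its 95% interval (bars, limma) for the 10 highest and 10 lowest differences among the 100 smallest p-values that missed, 9 of the most abundant genes near normal and Tmem254c (y axis), with the band of 1 log2 in grey. Of these genes Tmem254c at -5.49 lies furthest from normal, and the near-normal genes such as Rhoa stay within the band.

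AP-1 subunits stood above normal in part. Of the 12 measured, none rose or fell, 6 lay above both normal libraries and 2 below both, against 12.7% and 26% of all genes, and their median difference was 0.90 log2 relative to all genes (0.47 to 1.04 over the scalings). After median-of-ratios scaling 6 lay above both and 0 below both. Junb, an activating partner with a strong response to cytokines, was at 49.6 and 40.3 FPKM in normal and at 168 and 171 in T-5224 (log2 difference 1.90, SE 0.34, limma adjusted p = 0.278). Fos, whose protein T-5224 was made to block, was at 28.1 and 65.9 FPKM in normal and at 140 and 226 in T-5224 (2.02, SE 0.55, adjusted p = 0.303). For both genes the T-5224 libraries were the higher ones without overlap, also after median-of-ratios scaling, TPM and length correction. The BAPN libraries held Junb at 282 and 265 FPKM, above T-5224, and Fos at 129 and 156 FPKM, at about the T-5224 level. Fosb was at 7.75 and 15.1 FPKM in normal, 34.3 and 23.2 in T-5224 and 65.6 and 49.1 in BAPN. Jun was at 68.4 and 70.2 FPKM in normal and at 86.9 and 172 in T-5224, a difference of 0.81 log2 that ran from -0.08 to 1.03 over the scalings.

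The other subunits lay closer to normal or overlapped with it. Jund, the subunit most expressed in resting cells, was at 107 and 162 FPKM in normal and at 186 in each T-5224 library, and its sign also changed with the scaling. Atf3, a repressing stress factor, was at 10.5 and 24.6 FPKM in normal, 21.9 and 74.0 in T-5224 and 131 and 118 in BAPN. T-5224 replicate 1 lay within the normal range for Atf3, and replicate 2 above it. Fosl1 was at 0.13 and 1.18 FPKM in normal and at 3.79 and 0.49 in T-5224, and Fosl2 at 20.6 and 34.9 against 20.2 and 14.9. Atf2 and Jdp2, the dimer partners that are not immediate early genes, had 95% intervals within 1 log2 of normal. The signs for Atf2, Jdp2 and Fosl2 changed with the scaling. Atf2 lay above both normal libraries after length correction, and Jdp2 lay below both after TPM. Atf2 was at 17.0 and 14.8 FPKM in normal and at 14.2 and 12.3 in T-5224, and Jdp2 at 31.1 and 30.2 against 33.7 and 21.8. Batf was listed at 2.55 and 1.04 FPKM in normal and at 3.12 and 0 in T-5224, and Batf3 at 0.56 and 0.76 against 1.40 and 1.54.

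Many cytokines and chemokines lay above normal, most of them at low levels. Of 30 listed genes, 24 passed the filter on low values, none rose or fell, 14 lay above both normal libraries and 2 below both, against 12.7% and 26% of all genes, and their median was 1.29 log2 relative to all genes (0.93 to 1.41 over the scalings). A member could pass that filter through its BAPN level alone. Ccl2, the chief attractant of monocytes, was at 1.22 and 0.46 FPKM in normal and at 9.59 and 12.2 in T-5224 (log2 difference 2.72, SE 0.42, limma adjusted p = 0.278). Ccl3 was at 0 and 0.62 FPKM in normal and at 6.18 and 6.98 in T-5224 (2.57, SE 0.38, adjusted p = 0.278). Ccl7 was at 3.66 and 0.77 FPKM in normal and at 26.7 and 11.4 in T-5224. In all 3 attractants of monocytes the groups did not overlap. BAPN alone gave 203 and 97.4 FPKM for Ccl2, 27.9 and 30.3 for Ccl3 and 380 and 195 for Ccl7, so the T-5224 values lay between normal and BAPN. Against BAPN, Ccl2 missed the test (adjusted p = 0.0798).

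Between T-5224 and BAPN alone 4 genes passed of all tested (0.0308%), and all 4 were cytokines that were lower under T-5224, namely Cxcl1, Cxcl2, Il6 and Csf3. Without either BAPN library none passed (0), without either normal or TPA library 2 did, and without T-5224 replicate 1, 85 did. These 4 genes were taken up for that result, after their values were seen. A gene near 0 in normal and T-5224 could pass the filter on low values through its BAPN level alone. It was then tested against that same level. Cxcl1, an attractant of neutrophils, was at 3.14 and 1.77 FPKM in normal, 4.93 and 7.59 in T-5224 and 365 and 255 in BAPN (limma adjusted p = 0.00959 against BAPN). Il6, a cytokine of the acute response, was at 0 and 0.10 FPKM in normal, 1.30 and 1.37 in T-5224 and 215 and 140 in BAPN (adjusted p = 0.00713 against BAPN). Both stood slightly above both normal libraries and far below BAPN. Cxcl2 was at 0.30 and 0.20 FPKM in normal and at 3.16 and 1.37 in T-5224 (adjusted p = 0.0428 against BAPN's 98.5 and 68.8 FPKM). Csf3, the growth factor of neutrophils, was at 0 in both normal libraries and at 0.41 and 0 in T-5224 (adjusted p = 0.0289 against BAPN's 54.2 and 38.6 FPKM). None of the 4 passed against normal, with adjusted p of 0.316 for Cxcl1, 0.309 for Il6, 0.315 for Cxcl2 and 0.802 for Csf3.

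Not every chemokine ended between normal and BAPN. Cxcl12, which holds progenitor cells and is made by stromal cells, was at 95.5 and 78.6 FPKM in normal, 192 and 256 in T-5224 and 109 and 130 in BAPN (log2 difference from normal 1.35, SE 0.37, limma adjusted p = 0.303). Both T-5224 libraries thus lay above normal and above BAPN. Cxcl9, a chemokine induced by interferon, was at 8.79 and 3.88 FPKM in normal and at 2.48 and 2.18 in T-5224, below both normal libraries. Among the genes that did not pass the filter, Tnf was at 0.58 and 0.47 FPKM in normal and at 1.03 and 0 in T-5224, and Il1a was listed at 0 in all 4 libraries. The members named in this paragraph besides Cxcl12 were chosen after their values were seen.

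The letters of the AP-1 motif TGANTCA were searched for in the 300-base promoter windows of RefSeq (GRCm38.p6), where a match on either strand is a match on both because the motif reads the same in reverse. It occurred in 7.93% of all 27025 windows and in 5.02% of the 9923 tested genes with a window. The share was 4.41% (56 of 1269) in genes above both normal libraries, 4.27% (111 of 2602) in genes below both and 5.82% (65 of 1117) in genes within the normal range. Among cytokines and chemokines 5 of 16 windows held it, and among AP-1 subunits 0 of 11. Of those 5 cytokines and chemokines, Il6 and Lif lay above both normal libraries, Cxcl9 lay below both, and Cxcl10 and Ccl9 had another order. Other genes below both normal libraries held it too, among them Osmr, Npy1r and Efemp1. A match is a string of letters and not a measured binding site. The stretches below are examples, shown because these genes stood above both normal libraries and hold the motif, which is in capitals. They lie at chr5:30012864-30012901 on the plus strand (Il6, motif 249 bases before the start), chr7:24462384-24462450 on the plus strand (Plaur, 69 bases before) and chr13:60936718-60936784 on the minus strand (Ctla2a, 129 bases before).
Il6: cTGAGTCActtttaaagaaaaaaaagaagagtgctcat
Plaur: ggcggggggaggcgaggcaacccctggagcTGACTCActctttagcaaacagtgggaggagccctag
Ctla2a: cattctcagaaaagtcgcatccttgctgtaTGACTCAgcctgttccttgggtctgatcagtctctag

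Levels of the 3 genes differed widely. Il6 remained near 1 FPKM in T-5224, as given above, and Ctla2a near 300 FPKM. Plaur, the receptor that holds urokinase at the cell surface, was at 10.8 and 15.7 FPKM in normal, 24.7 and 20.3 in T-5224 and 107 and 73.1 in BAPN. Its groups did not overlap as deposited, and they overlapped after the length trend was removed and after TPM.

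**Figure D3:**
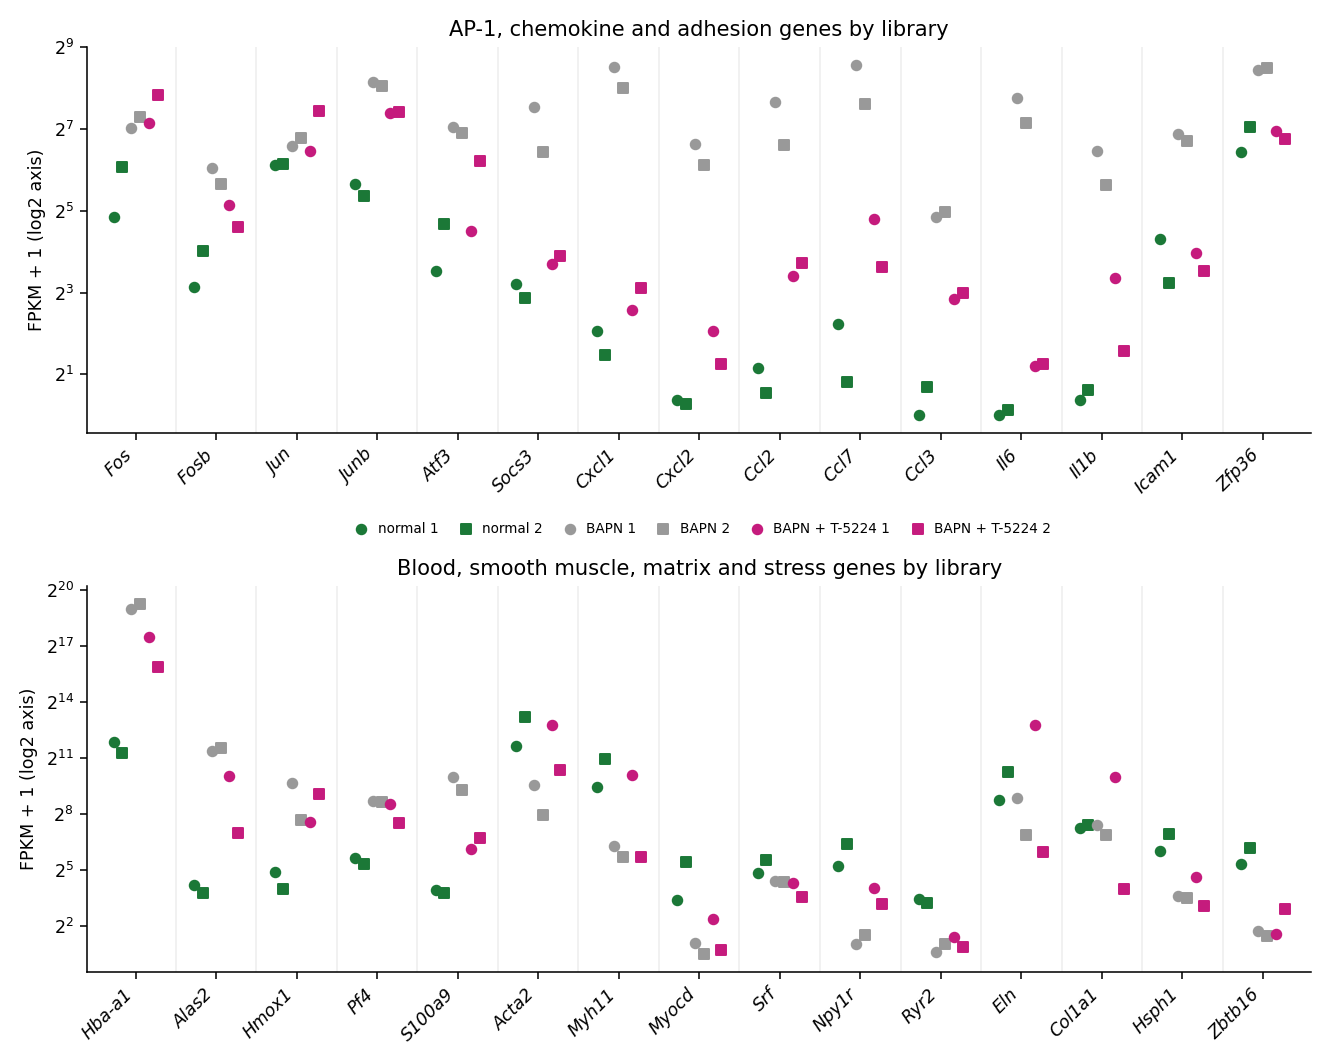
Level of single genes as FPKM + 1 on a log2 axis (y axis) in the normal (green), BAPN (grey) and T-5224 (magenta) libraries, with circles for replicate 1 and squares for replicate 2, above for AP-1, chemokine and adhesion genes and below for blood, smooth muscle, matrix and stress genes. Il6 and Cxcl1 in T-5224 lie near normal and far below BAPN, Fos lies at the BAPN level, and Eln and Col1a1 split the T-5224 libraries.

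Other early response genes lay on either side of normal. Of 20 immediate early genes outside AP-1, 5 lay above both normal libraries, 3 below both and 3 within the range, against 12.7%, 26% and 11.2% of all genes, and 2 had an interval within 1 log2. Zfp36, which destabilizes cytokine transcripts, was at 86.2 and 132 FPKM in normal and at 123 and 108 in T-5224, inside the normal range and with an interval from -0.76 to 0.98 log2. Ier5 was at 10.1 and 11.3 FPKM in normal and at 11.4 and 12.1 in T-5224 (interval -0.63 to 0.88). BAPN alone stood at 345 and 358 FPKM for Zfp36 and at 32.9 and 22.0 for Ier5, above all 4 values. Socs3, which brakes cytokine receptors, was at 8.25 and 6.27 FPKM in normal, 11.9 and 13.8 in T-5224 and 186 and 86.3 in BAPN. Ier2 was at 61.6 and 57.8 FPKM in normal and at 84.7 and 162 in T-5224, above both.

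Of 7 tested adhesion molecules of inflamed endothelium, 6 overlapped with normal. Icam1, which binds leukocyte integrins, was at 18.9 and 8.49 FPKM in normal, 14.6 and 10.6 in T-5224 and 117 and 104 in BAPN. Its T-5224 values were inside the normal range, and its interval ran from -1.0 to 0.94 log2. Sele, E-selectin, was at 0.78 and 0.36 FPKM in normal and at 0.25 and 1.25 in T-5224, against 15.4 and 12.1 in BAPN. Selp, P-selectin, was at 4.24 and 3.12 FPKM in normal and at 5.21 and 4.55 in T-5224, against 65.5 and 37.6 in BAPN. P-selectin alone of the 7 lay above both normal libraries, against 12.7% of all genes. None of these BAPN differences passed in limma, with an adjusted p of 0.101 for Icam1, 0.101 for Sele and 0.0798 for Selp.

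The receptors and regulators of these cytokines had a median close to that of all genes. Of 22, 7 lay below both normal libraries and 2 above both, against 26% and 12.7% of all genes. After the length trend was removed these were 1 and 3, against 1460 and 2191 of 12649 genes. Il6st, the shared signal-giving chain of the Il6 receptor family, was at 82.5 and 83.5 FPKM in normal, 40.8 and 42.1 in T-5224 and 29.1 and 30.6 in BAPN (log2 difference from normal -0.98, SE 0.25, limma adjusted p = 0.303). Stat3, its transcription factor, was at 57.7 and 54.1 FPKM in normal and at 24.6 and 35.3 in T-5224. Osmr, the oncostatin M receptor, was at 26.0 and 21.6 FPKM in normal and at 13.3 and 11.0 in T-5224. The groups did not overlap in these 3 genes as deposited, though Il6st and Stat3 overlapped after length correction. The list as a whole lay at -0.05 log2 relative to all genes, with a range across 0 from -0.14 to 0.04. Il1r2, a decoy receptor carried by neutrophils, went the other way, from 0.44 and 0.07 FPKM to 1.31 and 3.67.

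Blood transcripts remained well above normal under T-5224. Of 11 red blood cell genes, 8 lay above both normal libraries, against 12.7% of all genes, and none below, and their median was 3.13 log2 above that of all genes (2.61 to 3.16 over the scalings). Their summed level was 7304 and 5249 FPKM in normal and 378800 and 122600 in T-5224, against 1128000 and 1338000 in BAPN. Hba-a1, an α-globin chain with a near-identical second copy, was at 3646 and 2463 FPKM in normal and at 186245 and 60369 in T-5224 (log2 difference 5.15, SE 1.57, limma adjusted p = 0.309). Fech, the last enzyme of haem synthesis, was at 36.4 and 23.7 FPKM in normal and at 153 and 43.8 in T-5224. Both were higher in T-5224 replicate 1 than in replicate 2. Slc4a1, the anion exchanger of the red cell membrane, was high in replicate 1 alone, at 16.0 FPKM, against 0.13 in replicate 2 and 0.58 and 0.63 in normal. In bulk tissue, fewer cells of a type and less RNA per cell cannot be told apart, and blood kept in the vessel or in the wall was not told apart either.

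Leukocyte and platelet markers were uneven. Of 9 tested neutrophil genes, 3 lay above both normal libraries, against 12.7% of all genes, and the defining marker Ly6g was listed at 0 in all 4 libraries. The list's summed level was 287 and 30.1 FPKM in normal and 146 and 397 in T-5224, so the groups overlapped. T-5224 replicate 1 held 4 of the 9 above both normal libraries and 4 below both, against 25.7% and 41.6% of all genes. Replicate 2 held 6 above and 2 below, against 30.7% and 48% of all genes. S100a8 and S100a9, the calprotectin chains of neutrophils and monocytes, were at 10.5 and 9.47 and at 14.0 and 12.4 FPKM in normal. In T-5224 they were at 66.8 and 254 and at 67.6 and 101 FPKM, without overlap (limma adjusted p = 0.278 for each). The BAPN values were 754 and 395 FPKM for S100a8 and 1010 and 616 for S100a9, above T-5224. Ltf, of the same list, went the other way, with differences from -3.82 to -2.82 log2 over the scalings and groups that overlapped. Pf4, platelet factor 4, was at 49.0 and 38.7 FPKM in normal, 364 and 183 in T-5224 and 418 and 405 in BAPN. It was the only 1 of the 9 listed platelet genes above both normal libraries in each, while Clec1b, outside the list, was so too. T-5224 replicate 1 held 8 of the 9 above both normal libraries and replicate 2 held 6 below both, against 25.7% and 48% of all genes. Gp9, a surface receptor of platelets, was at 0.60 and 4.90 FPKM in normal and at 31.8 and 0.21 in T-5224.

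Haem breakdown and antioxidant genes lay above normal in part. Of 24, 9 lay above both normal libraries, 1 below both and 4 within the range, against 12.7%, 26% and 11.2% of all genes, and their median was 0.59 log2 relative to all genes (0.14 to 0.62). Besides Hmox1, Blvrb, which reduces biliverdin, was at 47.9 and 20.5 FPKM in normal and at 67.4 and 142 in T-5224. Ftl1, ferritin light chain, which stores iron, was at 1254 and 688 FPKM in normal and at 2161 and 4100 in T-5224. Nqo1, a quinone reductase, was at 10.9 and 17.6 FPKM in normal, 22.5 and 34.5 in T-5224 and 11.5 and 4.79 in BAPN. Nqo1 thus lay above both normal and both BAPN libraries. The haem genes were higher in replicate 2, where haemoglobin held the smaller share, and the part of blood in these levels was not tested. The glutathione and thioredoxin reductases Gsr and Txnrd1 had intervals within 1 log2 of normal, at 19.1 and 25.2 FPKM for Gsr and 23.5 and 24.8 for Txnrd1 in T-5224.

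Smooth muscle genes were split between the T-5224 libraries. Of the 8 defining markers, T-5224 replicate 1 held 7 within the normal range, against 32.7% of all genes, while replicate 2 held 7 below both normal libraries, against 48% of all genes. Acta2 was at 3191 and 9310 FPKM in normal, 7067 and 1306 in T-5224 and 745 and 246 in BAPN. Myh11, smooth muscle myosin, was at 684 and 2005 FPKM in normal, 1102 and 50.3 in T-5224 and 75.5 and 50.1 in BAPN. In both genes replicate 1 sat within the normal range, and in Myh11 replicate 2 sat at the BAPN level. Cnn1, Lmod1, Smtn and Mylk had the same order. Tagln, which binds actin filaments, was at 1557 and 5048 FPKM in normal and at 3448 and 1565 in T-5224, within the range for both libraries. Log2 differences from normal ran from -2.88 to -0.27, with SE from 0.79 to 1.33, and no marker passed (limma adjusted p of 0.303 or more).

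A few contractile genes lay below normal in both T-5224 libraries. Of 28 contractile genes none passed, 9 lay below both normal libraries, 2 within the range and none above both, against 26%, 11.2% and 12.7% of all genes, and the median was -1.20 log2 relative to all genes (-1.70 to -0.99). Myocd, myocardin, the coactivator that drives the contractile program, was at 9.42 and 41.8 FPKM in normal, 4.08 and 0.61 in T-5224 and 1.09 and 0.39 in BAPN. Its partner Srf was at 27.1 and 44.8 FPKM in normal and at 18.3 and 10.5 in T-5224. Synpo2 was at 60.5 and 121 FPKM in normal and at 33.1 and 21.3 in T-5224. For Myocd T-5224 replicate 1 lay between normal and BAPN. After the length trend was removed, 6 of 28 lay below both, against 1460 of 12649 genes.

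Genes of the modulated state, which smooth muscle takes up after injury, were higher in part. Of 12, 4 lay above both normal libraries and none below both, against 12.7% and 26% of all genes, with a median of 1.07 log2 relative to all genes (0.20 to 1.11). Spp1, osteopontin, was at 4.40 and 0.91 FPKM in normal, 207 and 11.5 in T-5224 and 156 and 25.5 in BAPN (log2 difference 3.99, SE 1.39, limma adjusted p = 0.329). Timp1, an inhibitor of matrix proteases, was at 11.7 and 14.2 FPKM in normal, 167 and 35.7 in T-5224 and 221 and 54.2 in BAPN. Both were above normal in each T-5224 library and far higher in replicate 1, and Timp1 and S100a4 overlapped with normal after the length trend was removed, which left 2 of 12 above both. S100a4 was at 112 and 255 FPKM in normal and at 657 and 504 in T-5224, and Lgals3, galectin-3, which macrophages also express, at 63.8 and 27.1 against 72.0 and 140.

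Receptors and channels that set vascular tone had a low median. Of 21 tested, 8 lay below both normal libraries and none above both, against 26% and 12.7% of all genes. After median-of-ratios scaling 4 lay below both, against 2216 of all 12997 genes. After length correction 4 did, against 1460 of 12649, and after quantile normalization 3, against 1958 of 12997. As deposited, their median was -0.77 log2 relative to all genes (-0.87 to -0.51). Npy1r, a neuropeptide Y receptor of smooth muscle, was at 36.0 and 82.7 FPKM in normal, 15.4 and 7.85 in T-5224 and 1.06 and 1.81 in BAPN (log2 difference from normal -2.21, SE 0.48, limma adjusted p = 0.278). Ryr2, a calcium release channel, was at 9.68 and 8.13 FPKM in normal and at 1.62 and 0.80 in T-5224 (-2.19, SE 0.40, adjusted p = 0.278). Itpr1, another calcium release channel, was at 18.8 and 39.6 FPKM in normal and at 10.3 and 4.11 in T-5224. For Npy1r T-5224 lay between normal and BAPN, and for Ryr2 it lay near the BAPN values of 0.51 and 1.03 FPKM. Ptger4, a prostaglandin E2 receptor, had an interval within 1 log2 of normal, at 3.97 and 2.78 FPKM in normal and 2.60 and 4.12 in T-5224.

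Endothelial genes also differed between the T-5224 libraries, in the other direction. Of 11 markers, T-5224 replicate 1 held 10 below both normal libraries, against 41.6% of all genes, and replicate 2 held 6 above both, against 30.7% of all genes. Kdr, the main receptor for vascular endothelial growth factor, was the only 1 below normal in both, at 64.0 and 27.8 FPKM in normal and 4.27 and 9.95 in T-5224 (log2 difference -2.51, SE 0.51, limma adjusted p = 0.278). Cdh5, VE-cadherin, was at 137 and 76.8 FPKM in normal and at 20.4 and 103 in T-5224. Thbd, thrombomodulin, an anticoagulant surface protein of endothelium, was at 50.6 and 39.1 FPKM in normal, 20.9 and 9.58 in T-5224 and 117 and 70.0 in BAPN. It lay below both normal libraries under T-5224, whereas both BAPN libraries were above normal. Eng, endoglin, was at 156 and 97.6 FPKM in normal and at 62.2 and 70.5 in T-5224.

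Matrix genes set the T-5224 libraries far apart. Of 21 collagens, T-5224 replicate 1 held 14 above both normal libraries and replicate 2 held all 21 below both, against 25.7% and 48% of all genes. The mean log2(FPKM + 1) of the 22 listed collagens was 4.92 and 4.97 in normal, 5.70 in T-5224 replicate 1 and 2.64 in replicate 2. Col14a1, a collagen on the surface of fibrils, was the only collagen below normal in both, at 43.3 and 33.2 FPKM in normal and 27.6 and 8.16 in T-5224. Eln, elastin, and Col1a1, fibrillar collagen, were taken up after their values were seen. Eln was at 424 and 1194 FPKM in normal, 7046 and 61.8 in T-5224 and 453 and 114 in BAPN, and its difference from normal was -0.10 log2 with an SE of 2.02. Col1a1 was at 153 and 165 FPKM in normal and at 990 and 14.6 in T-5224. For these genes the 2 T-5224 libraries lay on opposite sides of normal, so their mean describes neither.

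Elastic fibre and cross-linking genes followed the same order. Of 21, T-5224 replicate 1 held 13 above both normal libraries and replicate 2 held 16 below both, against 25.7% and 48% of all genes. Mfap2, a microfibril protein, was the only 1 above both normal libraries in each, at 9.48 and 4.41 FPKM in normal and 30.6 and 14.0 in T-5224. Ltbp4, which binds latent TGF-beta, was below both, at 266 and 372 FPKM in normal, 172 and 33.3 in T-5224 and 59.3 and 42.0 in BAPN. Efemp1, fibulin-3, was below both, at 91.2 and 16.9 FPKM in normal and 9.91 and 15.5 in T-5224. Lox, the main target of BAPN among the lysyl oxidases of the aorta and taken up after its values were seen, was at 20.7 and 62.3 FPKM in normal, 159 and 23.1 in T-5224 and 70.6 and 40.0 in BAPN. Its T-5224 values lay above and within the normal range.

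Proteoglycan and matricellular genes lay below both normal libraries about as often as other genes. Of 27, 6 lay below both and none above both, against 26% and 12.7% of all genes, with a median of -0.48 log2 relative to all genes (-0.68 to -0.42). Sparcl1 was at 339 and 425 FPKM in normal, 148 and 115 in T-5224 and 197 and 223 in BAPN (log2 difference from normal -1.53, SE 0.33, limma adjusted p = 0.278). Prelp, a leucine-rich proteoglycan, was at 149 and 279 FPKM in normal and at 103 and 19.96 in T-5224. Hyal1, a hyaluronidase, was at 29.97 and 70.7 FPKM in normal and at 21.4 and 1.04 in T-5224. Sparcl1 was low to a like degree in both T-5224 libraries, and the others mainly in replicate 2. Between T-5224 replicate 1 and normal replicate 2 alone, the list median was 0.05 log2 relative to all genes.

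Proteases and their inhibitors lay on either side of normal. Of 26, 6 lay above both normal libraries and 7 below both, against 12.7% and 26% of all genes, and the median was -0.08 log2 relative to all genes (-0.19 to -0.02). Mmp15, a membrane-bound matrix metalloproteinase, was at 24.8 and 6.50 FPKM in normal and at 1.80 and 1.89 in T-5224 (log2 difference -2.29, SE 0.57, limma adjusted p = 0.296). Adamts9, a protease that cleaves proteoglycans, was at 11.8 and 17.7 FPKM in normal and at 5.77 and 3.99 in T-5224 (-1.41, SE 0.32, adjusted p = 0.278). Timp3, the inhibitor bound to matrix, was at 444 and 525 FPKM in normal, 278 and 139 in T-5224 and 113 and 93.6 in BAPN. In these 3 genes both T-5224 libraries were the lower ones. Among TGF-beta and BMP genes 6 of 21 lay below both normal libraries and 3 above both, near the same shares of all genes, and 2 lay below both after the length trend was removed. Tgfb3 was at 44.8 and 116 FPKM in normal and at 40.0 and 7.6 in T-5224, while Tgfb1 had an interval within 1 log2 of normal, at 53.6 and 49.6 against 50.8 and 39.2 FPKM.

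**Figure D4:**
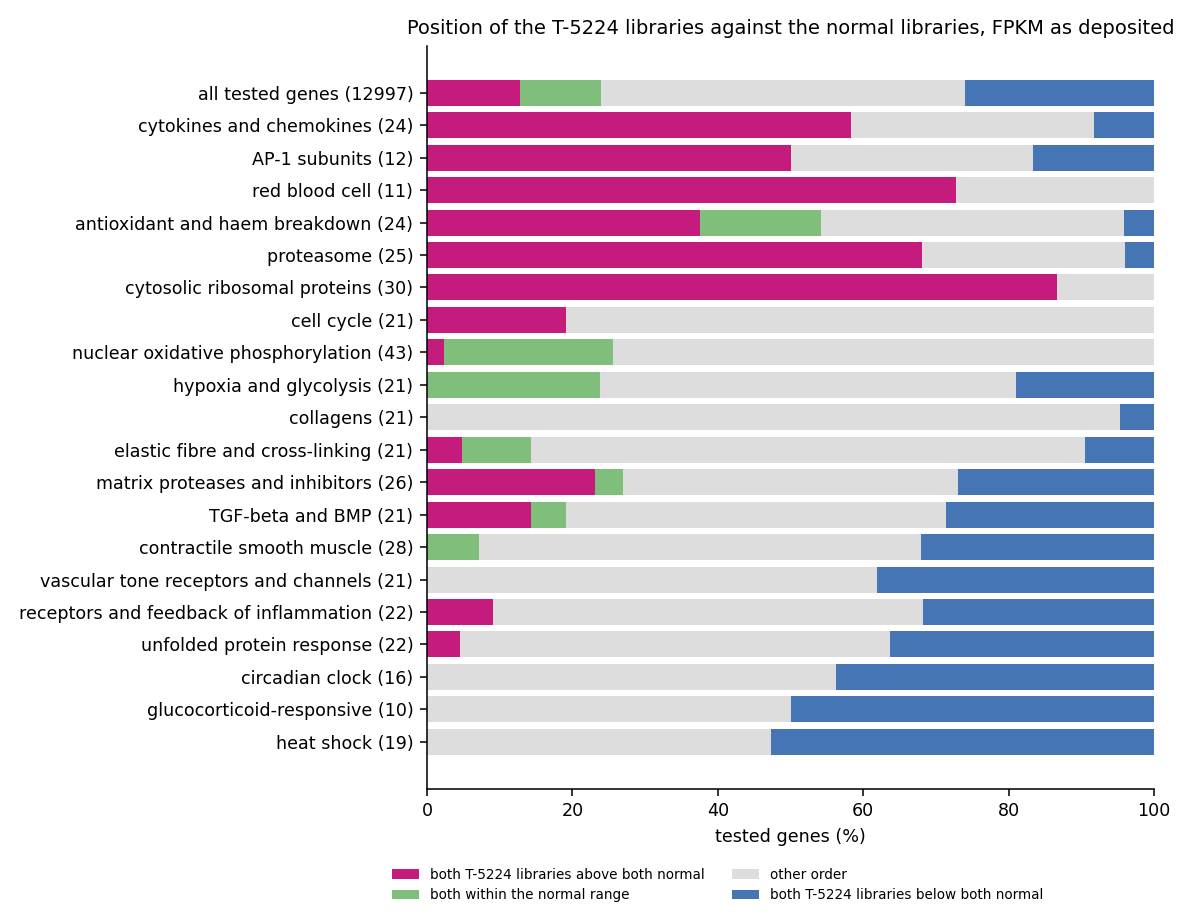
Share of tested genes in percent (x axis) whose T-5224 libraries lay above both normal libraries, within the normal range, in another order or below both, for all tested genes and for gene lists with their number of tested genes (y axis). In the values as deposited, ribosomal protein, red blood cell and proteasome genes have the widest share above, and heat shock and glucocorticoid-responsive genes the widest share below.

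Many heat shock genes stood low in both T-5224 libraries. Of 19, 10 lay below both normal libraries, against 26% of all genes, and none above both, with a median of -0.41 log2 relative to all genes (-0.83 to -0.37). After median-of-ratios scaling 4 lay below both, against 2216 of all 12997 genes. After quantile normalization 11 did, against 1958, and after length correction 6 did, against 1460 of 12649. Hspa4l, a co-chaperone of Hsp70, was at 20.9 and 15.7 FPKM in normal, 4.10 and 4.96 in T-5224 and 5.83 and 5.06 in BAPN (log2 difference from normal -1.79, SE 0.28, limma adjusted p = 0.278). Hspa1b, an inducible Hsp70 with a near-identical copy, was at 56.2 and 186 FPKM in normal and at 26.0 and 35.2 in T-5224. Dnaja1, which loads clients onto Hsp70, was at 70.4 and 82.4 FPKM in normal and at 36.5 and 34.4 in T-5224. The T-5224 libraries were alike and below normal in Hspa4l and Dnaja1, and near BAPN in Hspa4l.

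Genes of the unfolded protein response were divided. Of 22 genes, 8 lay below both normal libraries and 1 above both, against 26% and 12.7% of all genes. After median-of-ratios scaling 3 lay below both, against 2216 of all 12997 genes. Below both lay 4 of 11 signalling genes and 4 of 11 chaperones. Ern1, the sensor that splices Xbp1, was at 5.11 and 8.06 FPKM in normal and at 1.52 and 0.27 in T-5224 (log2 difference -2.06, SE 0.44, limma adjusted p = 0.278). Atf6, another sensor, was at 13.9 and 12.0 FPKM in normal and at 5.52 and 3.82 in T-5224 (-1.31, SE 0.29, adjusted p = 0.278). Their BAPN values, 1.26 and 1.57 FPKM for Ern1 and 3.33 and 4.05 for Atf6, were as low. Dnajb11, a chaperone of the endoplasmic reticulum, and Xbp1 itself had intervals within 1 log2 of normal, Dnajb11 at 47.4 and 41.4 FPKM in normal and 48.2 and 53.3 in T-5224. BAPN alone held Dnajb11 at 27.7 and 29.0 FPKM, lower than all 4.

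Many clock and glucocorticoid-responsive genes lay low as deposited, and fewer did so after rescaling. Of 16 clock genes, 7 were below both normal libraries, against 26% of all genes, and none above both. Their median was -0.35 log2 relative to all genes (-0.41 to -0.21). After median-of-ratios scaling 2 of the 16 were below both, against 2216 of all 12997 genes, so the excess was not seen on that scale. Tef, an output factor of the clock, was at 73.8 and 85.9 FPKM in normal, 58.9 and 43.8 in T-5224 and 12.5 and 12.8 in BAPN. Hlf, its relative, was at 15.3 and 11.2 FPKM in normal, 8.76 and 3.91 in T-5224 and 1.25 and 1.55 in BAPN. Both lay between normal and BAPN. Of 10 glucocorticoid-responsive genes, T-5224 replicate 1 held all 10 below both normal libraries and replicate 2 held 5, against 41.6% and 48% of all genes. Both T-5224 libraries lay below both normal libraries in 5 as deposited, against 26% of all genes. That number was 2 after median-of-ratios scaling, 4 after quantile normalization and 1 after length correction. Klf9 was at 79.7 and 86.7 FPKM in normal and at 17.0 and 60.9 in T-5224, and Pdk4, which restrains glucose oxidation, at 158 and 70.8 against 5.26 and 66.7. The sources used here do not give the hour of killing.

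Ribosomal protein and proteasome genes stood high, the former mainly through T-5224 replicate 2. Of 30 ribosomal protein genes, 26 lay above both normal libraries as deposited, against 12.7% of all genes. After the length trend was removed 9 did, against 2191 of 12649 genes. Their mean log2(FPKM + 1) was 9.08 and 9.30 in normal, 9.65 in T-5224 replicate 1 and 11.82 in replicate 2. Rps19 was at 193 and 185 FPKM in normal and at 324 and 1781 in T-5224, and Rps16 at 373 and 552 against 760 and 3437. These genes have processed copies elsewhere in the genome, and the sources used here do not say how such reads were assigned. Of 25 proteasome genes, 17 lay above both normal libraries and 1 below both, against 12.7% and 26% of all genes. After the length trend was removed 7 lay above both, against 2191 of 12649 genes. Psmb3 was at 134 and 114 FPKM in normal and at 210 and 289 in T-5224, whereas Psmc2, Psmc4, Psmc5, Psmd11 and Psmd14 had intervals within 1 log2 of normal.

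Cell cycle genes were carried by T-5224 replicate 1, which held 20 of 21 above both normal libraries, while replicate 2 held 4, against 25.7% and 30.7% of all genes. The genes above both in each library included Ccnb2, at 2.57 and 0.70 FPKM in normal and 7.77 and 6.11 in T-5224, and Tyms, at 4.70 and 2.36 FPKM in normal and 7.73 and 15.2 in T-5224. Ccnb2, a mitotic cyclin, stood at 9.24 and 7.31 FPKM in BAPN, near the T-5224 level. Isg15, an interferon-induced ubiquitin-like protein, was at 14.1 and 5.82 FPKM in normal, 79.7 and 24.7 in T-5224 and 24.7 and 24.98 in BAPN. Of the 17 tested interferon genes 2 lay above both normal libraries and 3 within the range, against 12.7% and 11.2% of all genes.

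Genes of oxidative phosphorylation had an uneven order. Of 43 nuclear genes of oxidative phosphorylation, 10 lay within the range of the normal libraries, 1 above both and none below both, against 11.2%, 12.7% and 26% of all genes, and none had an interval within 1 log2. T-5224 replicate 1 held 30 within the range, against 32.7% of all genes, and replicate 2 held 27 above both, against 30.7%. Normal replicate 1 was the higher normal library for these genes, with a list mean of 8.39 against 6.95 in replicate 2. Atp5e, a subunit of ATP synthase, was the 1 gene above both, at 352 and 212 FPKM in normal and 391 and 539 in T-5224, and it changed sign with the scaling. Of 18 fatty acid oxidation genes, T-5224 replicate 1 held 14 below both normal libraries, against 41.6% of all genes, and replicate 2 held 14 within the range, against 21.3%, with a median of -0.51 log2 relative to all genes (-0.77 to -0.48). Cpt1a, the gate of this pathway and the only member below both in each library, stood at 38.2 and 45.7 FPKM in normal and 17.3 and 9.35 in T-5224 (log2 difference -1.63, SE 0.35, limma adjusted p = 0.278). Of 21 glycolysis and hypoxia genes 4 lay below both, against 26% of all genes, namely Hk1, Pfkl, Pfkp and Pfkfb3, and Pfkp and Pfkfb3 were no longer so after length correction. Pfkl, a phosphofructokinase, was at 37.7 and 24.03 FPKM in normal and at 17.1 and 8.69 in T-5224. Slc2a1, the basal glucose transporter, was within the range and within 1 log2, at 18.6 and 27.0 FPKM in normal and 23.4 and 23.2 in T-5224, against 40.5 and 39.7 in BAPN.

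The most abundant genes with an interval within 1 log2 of normal, by the naming rule, included Rhoa, Laptm4a, Cdc42, Ywhae, Arf1, Zfp36, Arhgdia, Eif4a1 and Rac1. Rhoa, a GTPase that controls the actin skeleton, was at 319 and 409 FPKM in normal, 338 and 400 in T-5224 and 255 and 191 in BAPN (interval -0.83 to 0.88 log2). Cdc42 and Rac1, GTPases of the same family, were at 280 and 292 and at 208 and 246 FPKM in T-5224, against 238 and 285 and against 203 and 194 in normal. The interval and the range did not pick the same genes: 304 genes met both descriptions, of 1659 by the interval and 1453 by the range.

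Among the 775 tested members of all lists, each counted once, 24 had an interval within 1 log2, beside 12.8% of all genes. They included Icam1, Zfp36 and Ier5, described above, and Slc2a1. They also included Rela, the p65 subunit of NF-kappaB, at 44.0 and 55.2 FPKM in normal and 38.3 and 43.5 in T-5224, and the tumour necrosis factor receptor Tnfrsf1a, at 69.3 and 55.6 against 55.7 and 85.9 FPKM. Tfam, which packages mitochondrial DNA, was at 7.15 and 6.33 FPKM in normal and at 4.83 and 10.1 in T-5224. Krtdap and Mt4 counted as near normal because they were listed at 0 in all 4 libraries, as were 11 tested genes in all, of which 3 had an interval within 1 log2.

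Being within the normal range can reflect a wide range. All 7 tested genes of mesothelium, the lining of the body cavities, lay within it, because normal replicate 1 was high: Krt19 was at 133 and 1.72 FPKM in normal and at 2.80 and 32.9 in T-5224. The summed level of 11 cardiac muscle genes was 12860 and 55.3 FPKM in normal and 48.4 and 2205 in T-5224, and that of 11 airway epithelium genes was 20680 and 44.9 against 23.8 and 5068. Skeletal muscle genes summed to 3354 and 22.4 FPKM in normal and to 25.3 and 11050 in T-5224, and white adipocyte genes to 17560 and 4639 against 1356 and 21130. For all these tissues normal replicate 1 and T-5224 replicate 2 were the high libraries. The part of these neighbouring tissues in the other results was not tested gene by gene, but both libraries were left out together, as follows.

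Without normal replicate 1 and T-5224 replicate 2, each group held 1 library, the lone samples were assumed to vary like the BAPN and BAPN+TPA pairs, and 22 genes rose and 20 fell in limma. Alas2 rose by 6.29 log2 (adjusted p = 0.0189) and Zbtb16 fell by 4.58 log2 (adjusted p = 0.0189). Rasl10b fell by 4.13 log2 (adjusted p = 0.0324). Ccl2, at 2.86 log2, and Junb, at 2.03 log2, kept their direction and missed the test (adjusted p = 0.105 and 0.108). Relative to all genes, the list medians between these 2 libraries were 1.20 log2 for cytokines and chemokines, 0.39 for AP-1 subunits, 4.74 for red blood cell genes and -0.82 for contractile smooth muscle, with the same sign as with all 4 libraries. Collagens went from -0.61 with all 4 libraries to 0.67, and elastic fibre genes from -0.34 to 0.55. Other lists that changed sign included proteoglycan and matricellular genes, from -0.48 to 0.05, and proteases and their inhibitors, from -0.08 to 0.26. Glycolysis and hypoxia genes went from -0.04 to 0.11. Cytosolic ribosomal proteins kept their sign and went from 1.755 to 0.339.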

How the data were processed

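Per the labels' protocols, RNA of C57BL/6J mouse aorta was extracted with Trizol and made into libraries using TruSeq reagents. As deposited, the values are the authors' FPKM for each gene symbol in each library, on mm10 per the submitters' processing notes. Aligner, counting tool, annotation and read depth were not given in the sources used here, so precision near 0 is unknown. Unlisted genes were set to 0. Of 17179 symbols, the 12997 whose mean over 9 libraries reached 1 FPKM entered the tests. limma 3.58.1 (R 4.3.3) was fitted to log2(FPKM + 1) of 9 libraries in 5 groups, of which BAPN+TPA and BAPN+coQ10 serve only the shared spread (4 residual degrees of freedom, intensity trend), with two-sided p-values adjusted by the Benjamini-Hochberg method and a threshold of 0.05. Fold changes on this scale understate those of low genes. The fit was tested on simulated data. The libraries labelled 1 and 2 for T-5224 were taken as replicates, although their titles name 2 and 3 weeks. Replicate numbers did not pair the samples (correlations of deviations from -0.437 to 0.176).

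Alternatives were another offset, other filters, 5 other scalings or corrections, other fits and left-out libraries. Named genes were those that passed, the 10 highest and 10 lowest differences among the 100 smallest p-values that missed, the 4 members of smallest p in each list, all AP-1, smooth muscle and red blood cell genes, and near-normal genes by abundance or list. Members and lists were chosen with earlier results of these data known. Coordinates and promoter sequences are RefSeq's (GRCm38.p6, the patch release of mm10), and lengths are those of the longest GENCODE M 21 transcript (97.3% of tested genes). Tables and figures were made in Python 3.11.15 (numpy 2.4.6, pandas 2.3.3, matplotlib 3.10.9). A few genes taken by the naming rule are not reported here.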

Additional observations from a re-analysis of the deposited data

How the results depend on the processing

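The count of genes that rose was 0 and became 1 with an offset of 0.1, 22 after TPM and 22 with normal replicate 1 and T-5224 replicate 2 left out together. Leaving out 1 library at a time it ran from 0 to 669, the highest without T-5224 replicate 1 and 16 without replicate 2. The count that fell was 1 and became 0 with an offset of 0.1, a mean FPKM of at least 5, TPM without haemoglobin or only the 4 libraries, 3098 after TPM, and 20 with both libraries left out. Leaving out 1 library at a time it ran from 0 to 1567, being 0 without either normal, BAPN or TPA library, 1567 without T-5224 replicate 1 and 15 without replicate 2. With the replicate number as a block no gene rose, fell (0) or passed against BAPN (0), at 1478 unadjusted p under 0.05. Genes with an unadjusted limma p under 0.05 numbered 1809, and 5930 after TPM, 975 after the length trend was removed and 515 with only the 4 libraries. That count also moved when single libraries were left out.

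Genes with an interval within 1 log2 numbered 1659, and 4576 with no filter, 376 after TPM, 503 after TPM without haemoglobin, 73 with only the 4 libraries, and 362 to 2294 leaving out 1 library (362 and 368 without normal replicate 1 or 2, 704 and 694 without TPA replicate 1 or 2). Genes within the normal range numbered 3449 with no filter, 833 at a mean FPKM of at least 5 and 802 after TPM. Genes above both numbered 233 after TPM, 764 after TPM without haemoglobin and 2621 after quantile normalization. Genes below both numbered 2241 at a mean FPKM of at least 5, 2216 after median-of-ratios scaling, 8122 after TPM, 1958 after quantile normalization and 1460 after the length trend was removed. Genes that passed against BAPN numbered 4, and 2 with an offset of 0.1, no filter, a mean FPKM of at least 5 or TPM without haemoglobin, 35 after median-of-ratios scaling, 3168 after TPM, 17 after quantile normalization, 20 after the length trend was removed, 2245 with both libraries left out, and 0 to 85 leaving out 1 library (0 without either BAPN library, 2 without either normal or TPA library, 85 without T-5224 replicate 1). The cause of these shifts was not tested. No difference of a named gene that had passed changed sign under these alternatives. The unknown depth limits every level near 0.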
